A study of Mus musculus with 298 samples.

Results

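Noradrenergic2 and Noradrenergic3 were compared with Noradrenergic4 and Noradrenergic5, 4 of the neuronal identities that the labels give to single neurons from thoracic sympathetic ganglia of the mouse. The first pair held much Npy and is called the Npy-rich side below, and the second pair held little and is called the Npy-poor side. Of the 298 cells in the table, 183 belong to these identities, 142 on the Npy-rich side (39 Noradrenergic2 and otherwise Noradrenergic3) and 41 on the Npy-poor side (18 Noradrenergic4 and 23 Noradrenergic5). Cells were chosen by the identity label alone, summed per identity and collection, and each identity was given equal weight. A collection means the cells that share 1 sex and 1 age, since no animals are named in the labels.

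All cells came from mice that carry Wnt1-Cre, a recombinase driver active in the neural crest, and the R26R-Tomato reporter, a cross used to tell ganglia from the tissue around them. No cell was treated, and no mouse without the cross was analysed here. The ganglia were dissociated, and cells were captured on microfluidic chips, where sites with a single healthy cell were picked by eye. The Npy-rich cells came from 9 collections of postnatal days 11 to 38 (104 cells labelled female, 38 male), and the Npy-poor cells from 7 of these (35 female, 6 male). By collection, Noradrenergic2, 3, 4 and 5 had 0, 6, 1 and 2 cells at P11 (female), 5, 12, 0 and 2 at P29 (male), 2, 13, 4 and 1 at P30 (female), 18, 43, 7 and 14 at P31 (female), 7, 10, 2 and 3 at P33 (female), 0, 3, 0 and 1 at P34 (female) and 5, 16, 4 and 0 at P38 (male). The P16 and P20 female collections added 1 Noradrenergic2 cell each. The sex label of the P16 collection is in doubt, since its 5 cells of all identities held 0 counts of Xist and 28 of Y-linked genes. How an identity was assigned is not given in the labels, and if identities were drawn from these transcriptomes, p-values between them are no independent evidence.

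Total counts per cell ran from 7225 to 81589 over the 183 cells, and Noradrenergic2 had a median of 43245, Noradrenergic3 of 36658, Noradrenergic4 of 33144 and Noradrenergic5 of 35553. The mean log2 total was higher on the Npy-rich side by 0.16 (SD 0.28, n = 7 collections), in 4 of 7 collections (two-sided exact sign-flip permutation test, p = 0.172; the smallest p possible is 0.015625). Levels below are counts per 10000 counts of the summed cells, without regard to gene length, so they compare cells and not genes. The level of a side in a collection is the mean of its identities there. Fold changes come from 1 edgeR fit, are on the log2 scale, and are Npy-rich minus Npy-poor. A gene is said to rise or fall on the Npy-rich side only where its edgeR adjusted p was under 0.05.

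Sympathetic noradrenergic neurons make noradrenaline from tyrosine through Th, Ddc and Dbh, load it into vesicles with Slc18a2 and take it back with Slc6a2. Many of them also release neuropeptide Y, a vasoconstrictor peptide that is stored in large dense-core vesicles with the granins and acts beside noradrenaline on blood vessels. Sympathetic neurons with and without this peptide are known to supply different targets, the first typically blood vessels and the second including glands, but the targets of these cells were not recorded.

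The division ran through 2 peptide genes of opposite direction, Npy and Edn3, which codes for the peptide endothelin 3. Npy lies on chromosome 6, 49822710 to 49829507, plus strand, and Edn3 on chromosome 2, 174760619 to 174784042, plus strand (GENCODE vM21 on GRCm38). The 250 bases before the start of each are shown because these genes differed most widely in opposite directions among peptide genes. They are taken from RefSeq on GRCm38.p6, chr6:49822460-49822709 and chr2:174760369-174760618, both on the plus strand. Capitals mark the 2 E-boxes (CANNTG) found in the Edn3 stretch.
Npy: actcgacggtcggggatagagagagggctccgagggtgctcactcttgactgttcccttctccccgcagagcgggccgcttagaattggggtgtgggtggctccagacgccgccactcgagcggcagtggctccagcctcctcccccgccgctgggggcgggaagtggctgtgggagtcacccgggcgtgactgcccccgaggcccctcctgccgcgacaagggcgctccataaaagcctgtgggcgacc
Edn3: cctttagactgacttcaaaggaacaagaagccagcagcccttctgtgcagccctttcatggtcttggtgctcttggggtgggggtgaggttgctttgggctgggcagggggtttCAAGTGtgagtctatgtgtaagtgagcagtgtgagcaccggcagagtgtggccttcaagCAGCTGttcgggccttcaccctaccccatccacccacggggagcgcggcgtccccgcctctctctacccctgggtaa
A total of 5 motifs were searched on both strands, the cyclic AMP response element TGACGTCA, its contained core TGACG, the E-box CANNTG, the GATA element AGATAA and the TATA box TATAAA, and the Npy stretch held 0 matches to any of them. Among 27025 promoters of this length the E-box was found in 66.0%, and in 6 of the 12 matched promoters of the genes highest on the Npy-rich side and 8 of the 12 on the other. The core was found in 17.9% of promoters, in 1 of 12 and in 4 of 12. A match is a description of letters and not of a bound site.

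Npy stood at 128 to 176 counts per 10000 in the 9 collections of the Npy-rich side (median 138) and at 0.462 to 55.8 in the 7 of the Npy-poor side (median 5.01). The sides did not overlap. By identity the mean level was 158 ± 13.3 in Noradrenergic2 (SD, n = 7 collections), 132 ± 14.7 in Noradrenergic3 (n = 7), 21.97 ± 34.3 in Noradrenergic4 (n = 5) and 11.3 ± 21.8 in Noradrenergic5 (n = 6). Noradrenergic4 and Noradrenergic5 did not differ beyond their spread, and both SDs exceeded the mean because 1 collection was high in each, P33 (female) at 82.0 in Noradrenergic4 and P34 (female), a single cell, at 55.8 in Noradrenergic5. The fitted log2 fold change was 4.70 (SE 1.01). Since the division was named after Npy, this and the values of Gal and Adra2a are descriptions without a test.

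The division also ran through single cells. Npy was at 34.2 to 234 counts per 10000 in the 142 Npy-rich cells (median 131) and at 0 to 100 in the 41 Npy-poor cells (median 1.93). No Npy-rich cell was below 20, and 5 Npy-poor cells were above it. All 5 exceeded the lowest Npy-rich cell and none reached the lower quartile of that side, 106. The highest of them were the 2 Noradrenergic4 cells of the P33 female collection, at 100 and 72.2.

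**Figure D1:**
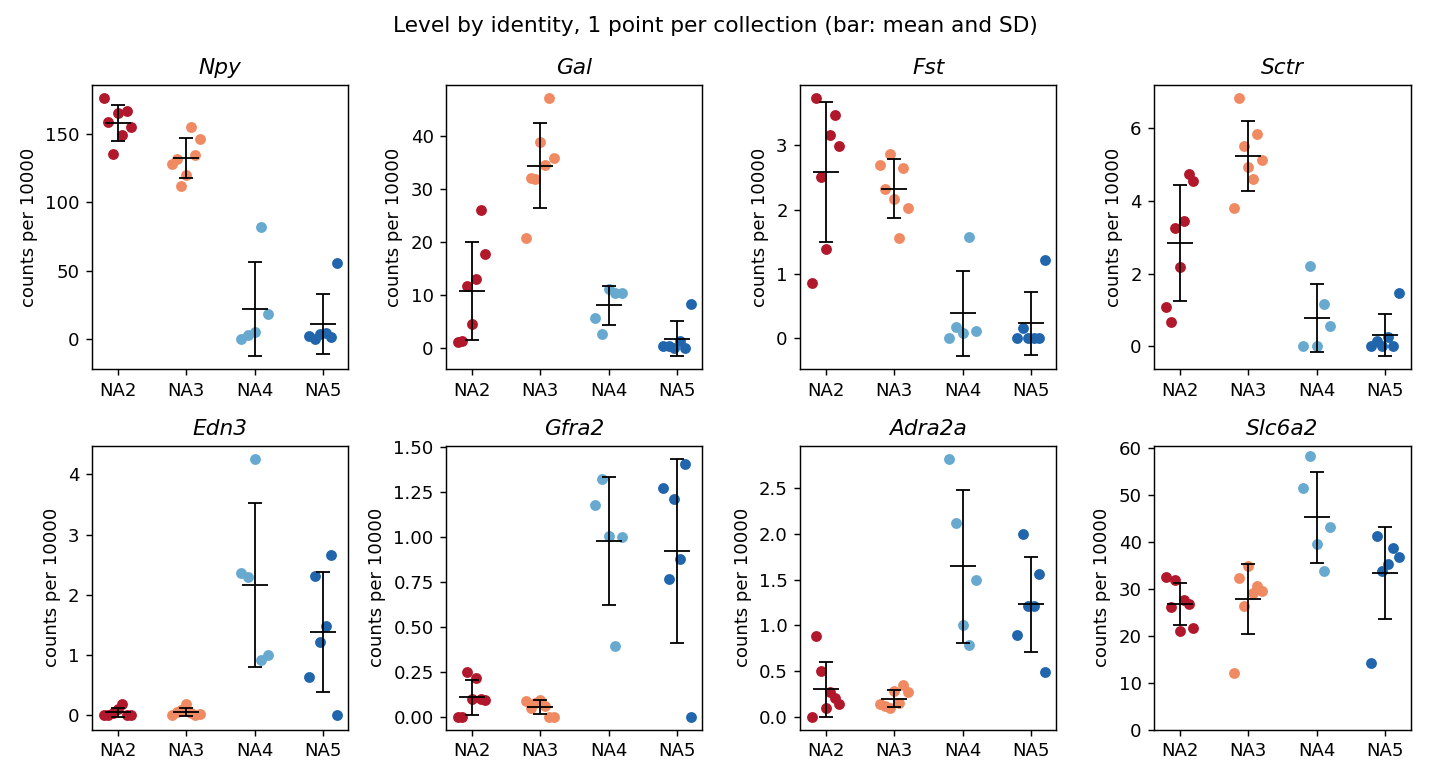
Level in counts per 10000 (linear axes) of 8 genes in Noradrenergic2, 3, 4 and 5 (NA2 to NA5), each point a collection, with the mean and SD as bars. Npy, Fst and Sctr are high in NA2 and NA3, Edn3, Gfra2 and Adra2a are high in NA4 and NA5, Gal is highest in NA3, and 1 high collection stands out for Npy in NA4 and in NA5.

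Gal, which codes for galanin, a peptide that is found in many noradrenergic neurons, followed the division with a difference inside it. Its levels were 1.07 to 47.3 counts per 10000 on the Npy-rich side (median 21.9) and 0.308 to 10.4 on the Npy-poor side (median 5.16). The sides overlapped, but Gal was higher on the Npy-rich side in 7 of 7 collections with both sides. The order of identities was Noradrenergic3 (34.5 ± 8.06), Noradrenergic2 (10.8 ± 9.25), Noradrenergic4 (8.04 ± 3.72) and Noradrenergic5 (1.72 ± 3.27), and the middle 2 did not differ beyond their spread. The log2 fold change between the sides was 3.19 (SE 0.40).

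Adra2a, the alpha-2A adrenergic receptor through which noradrenaline holds back its own release, went the other way. Levels were 0 to 0.879 counts per 10000 on the Npy-rich side (median 0.202) and 0.489 to 2.0002 on the Npy-poor side (median 1.5001). The sides overlapped through the P20 female collection, a single Npy-rich cell, and Adra2a was lower on the Npy-rich side in 7 of 7 collections. It had a count in 71 of 142 Npy-rich and 38 of 41 Npy-poor cells, with a log2 fold change of -2.44 (SE 0.24).

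In all, these 3 genes included, edgeR called 420 of 11555 genes tested between the sides (3.63%), with 268 higher on the Npy-rich side (2.32%) and 152 lower (1.32%). An unadjusted p under 0.05 was found for 1439. Of them 407 followed the division, meaning that the fold change also had the same sign in all 4 comparisons of an Npy-rich with an Npy-poor identity, 263 higher (2.28%) and 144 lower (1.25%). These comparisons share libraries with each other and with the fit. Of the followers, 68 were also called in all 4 comparisons at once, 46 higher and 22 lower. Over collections, 27 of the tested genes stood higher on the Npy-rich side without overlap (0.234%) and 15 lower (0.13%). Over all genes the median log2 fold change was 0.101 with TMM scaling and -0.0033 with RLE size factors, under which 211 genes were higher and 203 lower. Chips were split into 2 lots by the leading digits of the chip number, which the labels do not call a lot. All cells labelled male were on the same lot and the other held only cells labelled female. The lots thus also differ in sex and collection. Counts within the 2 chip lots were 136 higher and 65 lower in one, and 74 higher and 34 lower in the other. They were 161 higher and 57 lower without the P31 female collection.

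Within the sides edgeR also called genes. Noradrenergic2 and Noradrenergic3 differed in 64 genes (0.554%; 41 higher in Noradrenergic2, 23 lower; 634 at an unadjusted p under 0.05), and Noradrenergic4 and Noradrenergic5 in 33 (0.286%; 16 and 17; 713), although the cells behind each of these contrasts differ in number. The counts between the sides, one identity with one, were 217 for Noradrenergic2 with 4, 221 for Noradrenergic2 with 5, 206 for Noradrenergic3 with 4 and 256 for Noradrenergic3 with 5. Noradrenergic4 with 5 came to 12 genes when the collection block was left out.

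Among genes with a level of at least 0.5 counts per 10000 on their higher side, those with the widest gap between the sides are described next, 15 in each direction, the gap being the smallest of the 4 fold changes. On the Npy-rich side Npy itself was among them. Fst codes for follistatin, which binds activins and bone morphogenetic proteins. It stood at 0.855 to 3.73 counts per 10000 on the Npy-rich side (median 2.51) and at 0 to 1.22 on the Npy-poor side (median 0.111). The highest Npy-poor collection passed the lowest Npy-rich one, but Fst was higher on the Npy-rich side in 7 of 7 collections, by 4.09 (SE 0.55, adjusted p = 5.42e-06 by edgeR). Sctr, the receptor for secretin, was at 0.659 to 5.82 (median 4.18) and 0 to 1.47 (median 0.556), with overlap but higher in 7 of 7 collections. Its log2 fold change was 3.43 (SE 0.46, adjusted p = 5.7e-06 by edgeR), and 141 of 142 Npy-rich cells had a count against 13 of 41. Rxfp1, a receptor for relaxin, rose by 4.11 (SE 0.47, adjusted p = 1.8e-15 by edgeR), with a count in 122 of 142 and in 4 of 41 cells.

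Pcdh7, a protocadherin, was at 2.07 to 3.08 counts per 10000 on the Npy-rich side (median 2.57) and at 0.154 to 0.978 on the Npy-poor side (median 0.441). Tenm2, a teneurin that joins cells across synapses, was at 2.79 to 4.92 (median 3.44) and 0.264 to 1.22 (median 0.754). Neither gene overlapped between the sides, and each was higher in 7 of 7 collections. The log2 fold changes were 3.54 (SE 0.27, adjusted p = 3.26e-34 by edgeR) for Pcdh7 and 2.45 (SE 0.22, adjusted p = 1.69e-25 by edgeR) for Tenm2. Pcdh7 also differed within the Npy-poor side, with 0.791 in Noradrenergic4 and 0.195 in Noradrenergic5 (adjusted p = 0.00468 by edgeR). Plscr1, a phospholipid scramblase, was at 1.55 to 3.42 (median 2.31) and 0.154 to 0.613 (median 0.222). Its sides did not overlap either, with a log2 fold change of 2.81 (SE 0.25, adjusted p = 6.07e-26 by edgeR). Chodl, a membrane lectin, rose by 4.79 (SE 0.68) and Fxyd5, a regulator of the sodium pump, by 2.49 (SE 0.31).

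Pcp4, a small peptide that binds calmodulin, stood at 0.879 to 9.50 counts per 10000 on the Npy-rich side (median 6.89) and 0 to 2.30 on the Npy-poor side (median 0.244). The sides overlapped by the P33 female collection alone, and the log2 fold change was 4.31 (SE 0.60, adjusted p = 1.21e-05 by edgeR). Elmo1, which with Dock proteins activates the GTPase Rac, had 356 counts in the Npy-rich cells and 3 in the Npy-poor, and its level was 31.6 times as high (95% counting interval 10.7 to 154). Elmo1 differed within the Npy-rich side too, at 1.15 in Noradrenergic2 and 0.389 in Noradrenergic3 (adjusted p = 0.000138 by edgeR). Tmem255b had 276 counts against 3, a ratio of 24.5 (8.31 to 120). These ratios pool the cells of a side, and the fitted log2 fold changes were 4.82 for Elmo1 and 4.96 for Tmem255b. Neither Elmo1 nor Tmem255b overlapped between the sides. The copine Cpne8 (3.28), the transmembrane channel-like Tmc3 (3.26) and the transporter-like Slc35d3 (2.64) complete the group. Apart from Npy, all 14 of these genes had a call in each alternative setting in which they were tested, and the same sign on both chip lots.

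**Figure D2:**
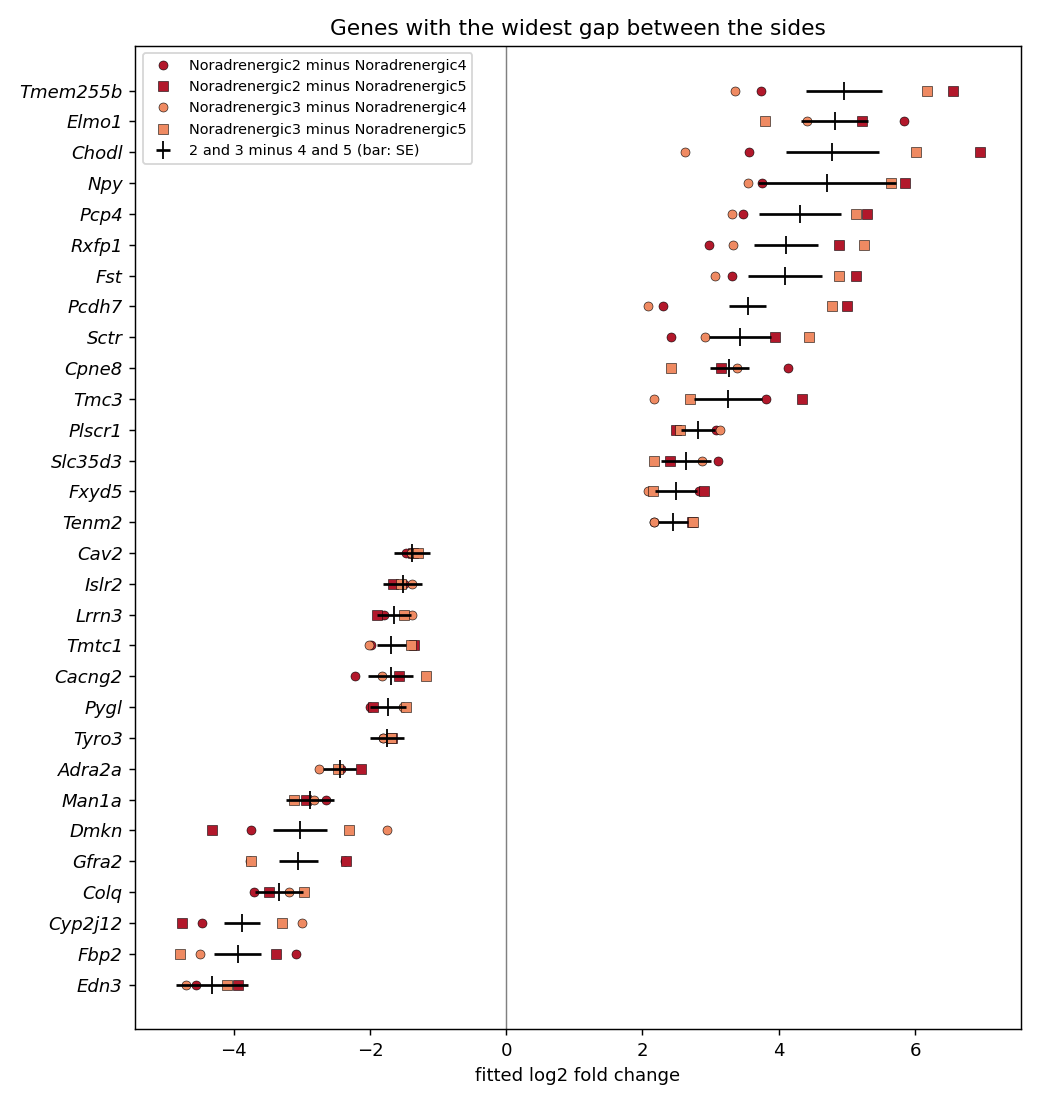
Fitted log2 fold changes for the 15 genes with the widest gap in each direction, with the 4 comparisons of single identities as symbols and the comparison of the sides as a cross (bar: SE). All 4 symbols of a gene lie on the same side of 0, which the choice of these genes required, and the higher genes reach from 2.45 to 4.96 while the lower genes reach from -4.32 to -1.38.

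On the Npy-poor side the 15 genes included Adra2a. Edn3 stood at 0 to 0.185 counts per 10000 in the Npy-rich collections (median 0.00827) and at 0 to 2.87 in the Npy-poor ones (median 1.75). It was lower on the Npy-rich side in 6 of 7 collections, and at P34 the only Npy-poor cell had 0 counts. The log2 fold change was -4.32 (SE 0.53, adjusted p = 2.87e-06 by edgeR), and 22 of 142 Npy-rich and 32 of 41 Npy-poor cells had a count. Gfra2, the co-receptor for neurturin, was at 0 to 0.155 (median 0.0806) and 0 to 1.27 (median 0.942), with the same P34 cell at 0. It fell by 3.05 (SE 0.29, adjusted p = 2.63e-23 by edgeR). Tyro3, a receptor tyrosine kinase that binds Gas6 and protein S, fell by 1.75 (SE 0.25).

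Cyp2j12, a cytochrome P450 that has close relatives among which reads may be split, was at 0 to 0.257 counts per 10000 on the Npy-rich side (median 0.0781) and 0.790 to 2.64 on the Npy-poor side (median 1.83). Fbp2, a fructose bisphosphatase, was at 0 to 0.163 (median 0.0377) and 0.167 to 2.12 (median 0.618). Pygl, a glycogen phosphorylase, was at 0.126 to 0.383 (median 0.214) and 0.500 to 1.73 (median 1.02). In all 3 the sides did not overlap, with log2 fold changes of -3.88 (SE 0.26), -3.94 (SE 0.35) and -1.73 (SE 0.27). Colq, the collagen-like tail that anchors acetylcholinesterase at synapses, also did not overlap, at 0 to 0.108 and 0.333 to 1.43 (log2 fold change -3.33, SE 0.35, adjusted p = 2.01e-18 by edgeR). The Golgi mannosidase Man1a (-2.88), the secreted Dmkn (-3.03), the leucine-rich repeat genes Lrrn3 (-1.64) and Islr2 (-1.52), the mannosyltransferase Tmtc1 (-1.69), the caveolin Cav2 (-1.38) and Cacng2 (-1.70), an auxiliary subunit of AMPA receptors, complete the group. Besides Adra2a, 10 of these 14 genes had a call in every setting, while Tyro3 and Cav2 lost it on one chip lot, Islr2 in cells thinned to 15000 counts, and Cacng2 in both and without the P31 female collection (-1.09).

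The genes most like Npy across libraries are given as a description, since the libraries span both sides and so restate the division. Over the 16 libraries of these identities with at least 3 cells, log2 levels of Ncald correlated with Npy at r = 0.986, Tenm2 at 0.969, Pcp4 at 0.947, Fst at 0.946 and Pcdh7 at 0.946. The lowest r were those of Gfra2 (-0.963), Edn3 (-0.953), Cyp2j12 (-0.948), Man1a (-0.926) and Adra2a (-0.923). These are the ends of 3969 genes, the libraries share collections and differ in cell number, and no p is given. Ncald, the calcium sensor neurocalcin delta, was at 14.03 to 24.4 counts per 10000 on the Npy-rich side and at 1.75 to 7.58 on the Npy-poor side. Its sides did not overlap, with a log2 fold change of 1.81 (SE 0.23, adjusted p = 2.01e-10 by edgeR).

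In single cells the 14 higher genes without Npy summed to a median of 33.4 counts per 10000 on the Npy-rich side and 1.72 on the Npy-poor side, and the 14 lower genes without Adra2a to 2.39 and 15.8. The higher sum exceeded the lower sum in 142 of 142 Npy-rich cells and in 3 of 41 Npy-poor cells, but the genes had been picked on these cells. The 85 unclassified cells took no part in picking them. There Npy correlated at Spearman rho = 0.66 with the higher sum and -0.70 with the lower sum, cells sharing collections and no p being given, and the higher sum exceeded the lower one in 75 of 85 cells and was the smaller in 9. Within Noradrenergic2 these correlations were 0.19 and -0.14, within Noradrenergic3 0.58 and -0.44, within Noradrenergic4 0.64 and -0.69, and within Noradrenergic5 0.41 and -0.70. In the 8 cells each of Ach1 and Ach2, Npy correlated with the higher sum at 0.35 and 0.52 and with the lower sum at 0.25 and 0.10. With the higher and the lower sum it correlated at 0.78 and -0.53 in the 10 Noradrenergic1 cells, and at 1.0 and 0.4 in the 4 Glutamatergic cells.

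**Figure D3:**
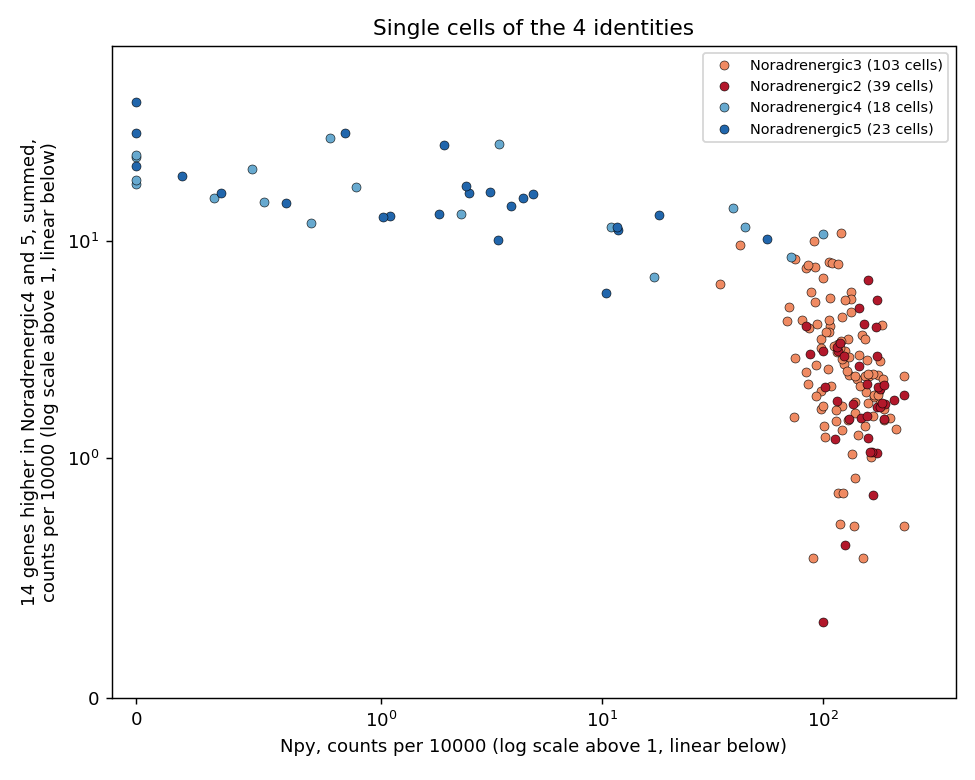
Npy against the summed level of the 14 genes higher in Noradrenergic4 and 5, each point 1 of 183 cells, in counts per 10000 on axes that are logarithmic above 1. Npy-rich cells gather at the right with sums mostly below those of the Npy-poor cells, and 5 Npy-poor cells lie among or near them above 20 counts per 10000 of Npy.

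Th and Dbh, which make noradrenaline, were not called between the sides. Th stood at 21.9 to 33.2 counts per 10000 on the Npy-rich side (median 23.8) and 23.8 to 34.2 on the Npy-poor side (median 26.3), and Dbh at 6.93 to 30.98 and 11.3 to 26.002 (both medians 18.9). The sides overlapped in both, and the log2 fold changes were 0.07 (SE 0.44) and -0.06 (SE 0.19). Slc6a2, the noradrenaline transporter, was at 12.1 to 32.5 on the Npy-rich side (median 28.1) and 32.9 to 46.1 on the Npy-poor side (median 37.4). Its sides did not overlap and it was lower on the Npy-rich side in 7 of 7 collections, but the fitted difference was not called (-0.39, SE 0.20, adjusted p = 0.409 by edgeR). With only these 4 identities in the fit (-0.47) and with libraries of at least 3 cells (-0.48) it was called. Of 14 measured genes of catecholamine synthesis, storage and uptake, 3 rose and 1 fell, beside 2.32% and 1.32% of all genes tested. Maob, which breaks down monoamines, rose by 1.09 (SE 0.20), Qdpr, which regenerates the cofactor of tyrosine hydroxylase, by 0.80 (SE 0.19) and the vesicular transporter Slc18a2 by 0.72 (SE 0.21, adjusted p = 0.0202 by edgeR). Slc18a2 was not called with RLE size factors, DESeq2, limma-voom or filterByExpr, nor without the block, with cells pooled per side or within either chip lot. It was also not called without the collections of P11 (0.67), P29 (0.71), P31 (0.70) or P38 (0.73), or without the P33 female Noradrenergic4 library. Maob lost its call with DESeq2, without the block and in a single lot, and Qdpr with cells pooled per side and in the same lot. Slc18a1, the vesicular transporter of endocrine cells, fell by 2.72 (SE 0.66), but stood at 1.21 in Noradrenergic5 and 0.0839 in Noradrenergic4 (adjusted p = 1.84e-07 by edgeR). Slc18a1 was not called on either chip lot, nor without the P31 female collection (-2.48).

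Among 15 measured neuropeptide precursors, Npy and Gal, which belong to the definition of the division and are not counted as results, passed the threshold, Sst and Adm rose and Edn3 fell. Of all genes tested, 2.32% rose and 1.32% fell. Npy did not pass the threshold with cells pooled per side (log2 fold change 4.18) or on one chip lot (4.82), which is likewise not counted as a result. Sst, which codes for somatostatin, had 65 counts in 27 of 142 Npy-rich cells and 0 in the Npy-poor cells, at least 5.78-fold higher when the Npy-poor cells as a group are set to the floor of 3 counts. This call was absent with DESeq2, on one chip lot and with limma-voom, which gave a log2 fold change of 1.20. Adm, the vasodilator adrenomedullin, rose by 1.15 (SE 0.26), was called between Noradrenergic2 and 3 too, and had a log2 fold change of -0.16 on one chip lot. Its call ended with DESeq2, filterByExpr and no block, and without the P31 (0.83) or the P33 (0.90) female collection. Among 12 measured granins and prohormone processing genes 4 rose and 0 fell. Chgb, a granin of dense-core vesicles, was at 2.57 to 8.79 counts per 10000 on the Npy-rich side (median 5.13) and 0.978 to 4.54 on the Npy-poor side (median 1.69), higher in 7 of 7 collections. It rose by 1.56 (SE 0.20, adjusted p = 1.99e-12 by edgeR), its relative Chga by 1.26 (SE 0.20), the amidating enzyme Pam by 1.09 (SE 0.20) and the proconvertase Pcsk1 by 0.92 (SE 0.26). Pam and Chga were not called by DESeq2, nor Pam on one chip lot. Pcsk1 was not called by limma-voom, with libraries of at least 3 cells, in thinned cells, with cells pooled per side or on either chip lot. It was also not called without the P30 (0.84), P31 (1.09) or P33 (0.87) female collection. Chga also stood higher in Noradrenergic3 (5.72) than in Noradrenergic2 (2.27, adjusted p = 1.71e-05 by edgeR).

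Calls among receptors went both ways. Chrm2, the M2 muscarinic receptor, rose by 0.87 (SE 0.22), and Adra2a has been described above. Of 22 receptors for peptides, prostaglandins and hormones 3 rose (Esr1, Npy5r and Oprd1) and 3 fell (Oprk1, Cckar and Ramp1). The shares over all genes tested were 2.32% and 1.32%. The opioid receptors among them had opposite directions. Oprk1, the kappa receptor, had 1 count in the Npy-rich cells and 43 in the Npy-poor, a ratio of 0.00620 (95% counting interval 0.000153 to 0.0364). This ratio and those below pool the cells of a side, so identities with more cells weigh more. The fitted log2 fold change of Oprk1, with identities weighted equally, was -4.955. Npy5r, a receptor for neuropeptide Y itself, had 39 counts against 1, a ratio of 10.4 (1.76 to 421), and Esr1, the estrogen receptor, 65 against 2, a ratio of 8.67 (2.30 to 73.1). Esr1 was higher in Noradrenergic2 (0.229) than in Noradrenergic3 (0.0349, adjusted p = 0.000633 by edgeR). Cckar, the cholecystokinin receptor, fell by 2.47 (SE 0.39) and stood at 0.971 in Noradrenergic5 and 0.201 in Noradrenergic4 (adjusted p = 0.0151 by edgeR). Ramp1 did not follow the division. Cckar was not called by DESeq2 or on one chip lot. Calls ended without the P31 female collection for Chrm2 (0.89), Esr1 (2.33) and Npy5r (2.45), without P33 for Npy5r (2.65), and without P30 (2.60) or P38 (2.58) for Esr1. Esr1 and Npy5r were not called by limma-voom or with cells pooled per side, nor Npy5r with libraries of at least 3 cells. Esr1 was not called on either chip lot, and Npy5r not on the lot where it was tested. Chrm2 was not called by limma-voom or on one lot.

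Of 23 receptors for neurotrophic factors, bone morphogenetic proteins and cytokines 3 rose (Fgfr1, Gfra3 and Acvr2a) and 3 fell (Gfra2, Lifr and Ret, of which Ret did not follow the division). Over all genes tested 2.32% rose and 1.32% fell. Gfra3, the artemin co-receptor, was at 0.190 to 0.479 counts per 10000 on the Npy-rich side (median 0.343) and 0 to 0.299 on the Npy-poor side (median 0.0441). Gfra3 was thus higher where Gfra2 was lower, by 2.62 (SE 0.46, adjusted p = 2.26e-06 by edgeR), with overlap between the sides and a higher level in 7 of 7 collections. Fgfr1, a fibroblast growth factor receptor, rose by 2.15 (SE 0.38), and Lifr, the receptor for leukaemia inhibitory factor, fell by 1.18 (SE 0.22). Gfra3 was not called with DESeq2 or without the P31 female collection (1.92).

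Among channel genes, set beside the 3.63% of all genes called, calls went both ways. Among 23 measured transmitter-gated channels 2 rose. Gria1, an AMPA receptor subunit, was at 1.71 to 2.93 counts per 10000 on the Npy-rich side (median 2.20) and 0.111 to 1.33 on the Npy-poor side (median 0.309). The sides did not overlap, and the log2 fold change was 2.62 (SE 0.26, adjusted p = 3.31e-19 by edgeR). Chrna7, the alpha-7 nicotinic subunit, rose by 1.64 (SE 0.51, adjusted p = 0.0412 by edgeR) and was not called with RLE size factors. Of 38 potassium channel genes 1 rose, the beta subunit Kcnmb4 (1.66, SE 0.30), and 3 fell, the sodium-activated Kcnt1 (-0.99, SE 0.25), the interacting protein Kcnip4 (-0.81, SE 0.21) and Kcnh6 (-2.30, SE 0.68). Of 31 sodium, HCN, calcium and TRP channel genes Scn3b rose (0.99, SE 0.21), and Cacng2 and Trpc6 fell. Chrna7 also lost its call without the P11, P31, P33, P34 or P38 collection (1.13 to 2.48), Kcnt1 without P31 (-0.72), Kcnip4 without P31 (-0.62) or P38 (-0.66), Kcnh6 without P33 (-1.40) and Trpc6 without P30 (-1.62). Chrna7, Kcnt1 and Kcnip4 were not called by limma-voom, nor Kcnip4 by DESeq2 or without the block, nor Kcnt1 and Kcnip4 with cells pooled per side. Chrna7 and Kcnip4 were not called on either chip lot. Libraries of at least 3 cells left Chrna7 and Kcnh6 without a call, as did thinned cells for Chrna7.

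**Figure D4:**
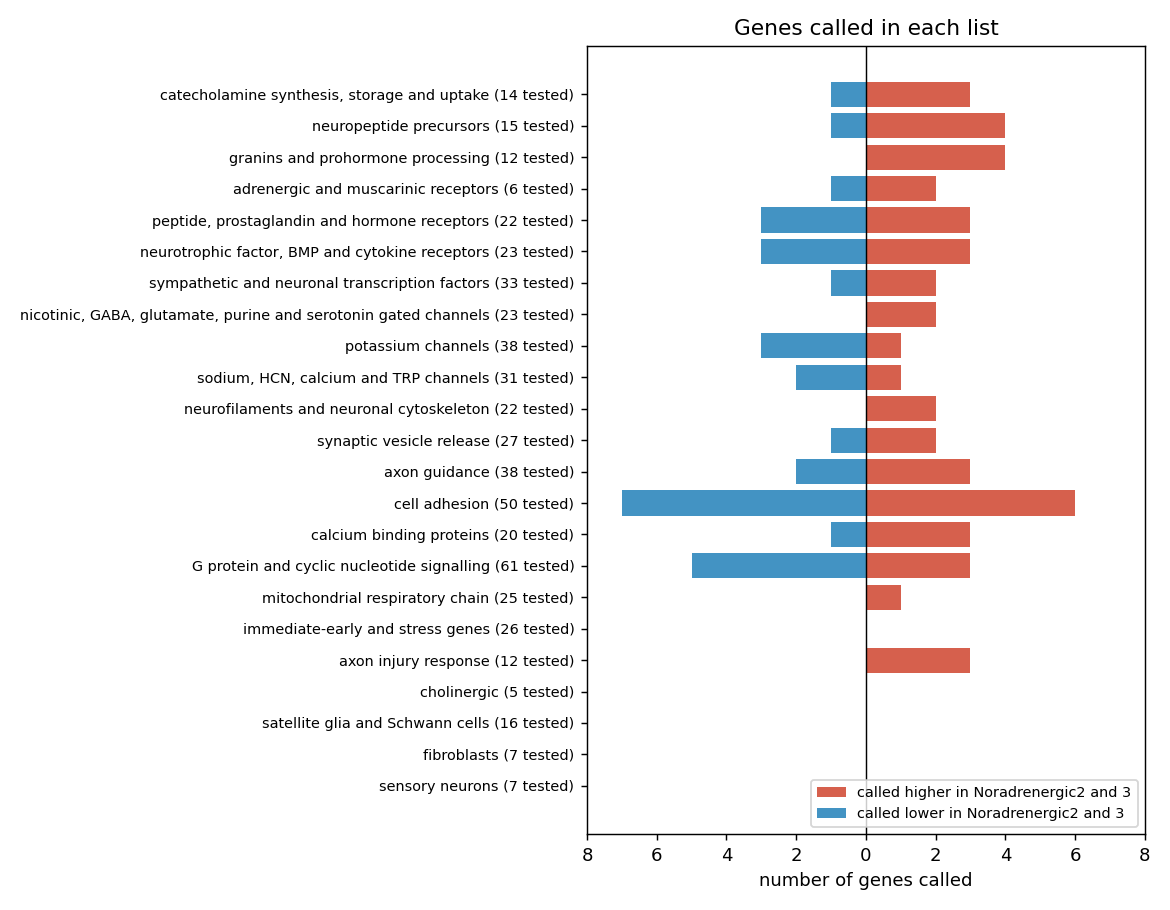
Number of genes called in each list, higher in Noradrenergic2 and 3 to the right and lower to the left, with the number tested in brackets and Npy, Gal and Adra2a counted in their lists. Cell adhesion has 6 higher and 7 lower of 50, granins and prohormone processing 4 higher of 12, and the lists of immediate-early, cholinergic, glial, fibroblast and sensory genes have 0 called. Over all genes tested 3.63% were called.

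Cell adhesion had calls in both directions, 6 higher and 7 lower of 50 measured genes. These counts and those of axon guidance stand beside 2.32% higher and 1.32% lower over all genes tested. Besides Pcdh7 and Tenm2, the protocadherin Pcdh10 was higher without overlap, at 0.855 to 1.72 counts per 10000 against 0 to 0.707 (log2 fold change 2.09, SE 0.25, adjusted p = 3.27e-14 by edgeR), and Pcdh9 rose by 1.43 (SE 0.21). Cdh6 and Cntn2 also rose, and Lrrn3, Cdh8, Flrt2, Itga7, Pcdh19, Cntn4 and Cntn6 fell. Of 38 axon guidance genes 3 rose and 2 fell. The ephrin receptor Epha5 rose by 1.12 (SE 0.20), the guidance ligand Slit2 by 2.31 (SE 0.53) and the semaphorin receptor Nrp1 by 0.82 (SE 0.19), whereas Ntng1 fell by 1.19 (SE 0.26) and Nrp2, the other neuropilin, was called lower too. Nrp1 was not called by DESeq2, by limma-voom or on either chip lot, Ntng1 was not called with cells pooled per side or on either lot, and Pcdh9 was not called by DESeq2. Slit2 was not called by DESeq2 or without the P31 female collection (2.002).

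Genes of signalling inside the cell had calls in both directions, set beside 2.32% higher and 1.32% lower over all genes tested. Gnas, the locus of the stimulatory G protein alpha subunit and of several overlapping transcripts that the counting may not separate, was at 15.8 to 39.5 counts per 10000 on the Npy-rich side (median 26.9) and 41.6 to 75.5 on the Npy-poor side (median 57.1). The sides did not overlap, with a log2 fold change of -0.88 (SE 0.20, adjusted p = 0.0012 by edgeR). Of 61 G protein and cyclic nucleotide genes 3 rose and 5 fell, and Adcy1, an adenylyl cyclase, fell by 1.81 (SE 0.35) while Prkar2b, a regulatory subunit of protein kinase A, rose by 1.86 (SE 0.34) and Prkcb, a protein kinase C, by 1.03 (SE 0.25). Among 20 calcium binding proteins 3 rose and 1 fell. S100a6 was at 1.32 to 39.8 (median 16.3) and 0.236 to 6.76 (median 3.83), with overlap, and rose by 2.42 (SE 0.52), while Necab1 fell by 1.71 (SE 0.26). Hpca was called, but in Noradrenergic2 (1.29) more than in Noradrenergic3 (0.428), and it did not follow the division. It was not called by DESeq2, limma-voom or filterByExpr, without the block, or with libraries of at least 3 cells. Nor was it called in thinned cells, with cells pooled per side, on one chip lot or without the P11 female collection (0.84). Prkcb was not called without P31 (0.81), in thinned cells or on one chip lot. S100a6 was not called by limma-voom, with cells pooled per side or on one chip lot, nor Gnas on either lot.

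The counts in the remaining lists stand beside the 3.63% of all genes that were called. Of 33 transcription factors 2 rose, Tfap2b (0.80, SE 0.20) and Etv1 (1.58, SE 0.38), and Satb1 fell by 0.95 (SE 0.25). Tfap2b, a factor of neural crest and sympathetic development, did not overlap between the sides, at 1.67 to 2.65 counts per 10000 and 1.00 to 1.61. Nefm, a neurofilament subunit, rose by 0.99 (SE 0.20) and Ina by 0.73 (SE 0.21), of 22 cytoskeletal genes. Of 27 synaptic vesicle release genes Syn2 (0.78, SE 0.19) and Rab3b (0.73, SE 0.19) rose and Sv2c fell by 0.82 (SE 0.25). Rab3b was not called by DESeq2, limma-voom, filterByExpr, without the block, with cells pooled per side or on either chip lot, and Syn2 was not called with cells pooled per side or on either lot. Of 25 respiratory chain genes 1 rose, Ndufa5 (0.63, SE 0.19), which was not called with RLE size factors, DESeq2, limma-voom or filterByExpr. Nor was it called without the block, with libraries of at least 3 cells, with cells pooled per side or on either lot. Of 12 measured axon injury genes, which include Npy and Gal, Ecel1, a peptidase-like protein induced in injured neurons, rose by 1.44 (SE 0.29). The median log2 fold change of this list was 0.0154, and its sum per cell without Npy and Gal was lower on the Npy-rich side (median 26.6 counts per 10000) than on the Npy-poor side (33.7). Calls ended without the P31 female collection for Tfap2b (0.72), Etv1 (1.28), Satb1 (-1.04), Ina (0.70) and Sv2c (-0.67). They also ended without P29 for Satb1 (-0.76), without P33 or P38 for Ina (0.62 and 0.67), without P30, P33 or P38 for Sv2c (-0.72, -0.75 and -0.86), and without P11, P29, P30 or P38 for Ndufa5 (0.51 to 0.70). Satb1, Ina and Sv2c were not called by limma-voom, in thinned cells, with cells pooled per side or on either chip lot. Ina also lost its call with RLE size factors, DESeq2 and filterByExpr, Sv2c with no filter and no block, and Satb1 with libraries of at least 3 cells. Tfap2b lost its call by limma-voom, in thinned cells and on one lot, and Etv1 in thinned cells and on either lot.

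Genes of other cells were measured beside these groups. With 3.63% of all genes called, 0 calls in lists this small cannot show that the sides are alike. Of 16 satellite glia and Schwann cell genes 0 were called, and their summed level per cell ran from 2.70 to 79.2 counts per 10000 on the Npy-rich side (median 7.81) and from 3.20 to 71.3 on the Npy-poor side (median 9.69, and 13.1 in Noradrenergic4). Fibroblast genes, 0 of 7 called, summed to 0 to 126 (median 0.694) and 0 to 29.3 (median 2.03). Sums of the endothelial, macrophage and smooth muscle lists had a median of 0 on both sides, and 0 of 3, 0 of 1 and 0 of 3 measured genes were called. The highest cells reached sums of 13.9, 0.817 and 15.3 counts per 10000 on the Npy-rich side and 0.487, 1.96 and 1.29 on the Npy-poor side. Genes with 0 counts on the Npy-poor side were 4 of 8 endothelial, 4 of 9 macrophage and 3 of 8 smooth muscle genes. On the Npy-rich side, which has more cells, they were 0 of 8, 2 of 9 and 2 of 8. Of 7 sensory neuron genes 0 were called, and Slc17a6 and Trpv1 had 0 counts on both sides. The sensory list of 10 genes still summed to 0.811 to 21.5 counts per 10000 on the Npy-rich side (median 9.28). On the Npy-poor side it summed to 2.46 to 16.8 (median 9.61). Cholinergic genes, 0 of 5 called, summed to medians of 2.02 and 2.63, and immediate-early and stress genes, 0 of 26 called, to 95.6 and 94.1. Of 4 chromaffin cell genes Chga rose and Slc18a1 fell. The part of glial and fibroblast RNA in the differences between the sides was not tested.

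The other named identities were set beside the sides. For each of the 30 genes of widest gap, the mean level of an identity was nearer to that of the Npy-rich or the Npy-poor side, after adding 0.1 on a log scale. Noradrenergic1 was nearer to the Npy-rich side for 10 of the 15 higher and 13 of the 15 lower genes, and Glutamatergic for 8 and 12. In all 10 Noradrenergic1 cells and all 4 Glutamatergic cells the higher sum exceeded the lower one. Ach1 was nearer to it for 6 and 7 genes, and Ach2 for 6 and 6.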

How the data were processed

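The authors deposited 1 table of raw counts, as whole numbers, with 16892 genes by 298 cells, as its values show. The build was mm10 per the submitters' processing notes, and the aligner, the counting program, the annotation and whether molecules were collapsed are not given in the sources used here. Counts were summed per identity and collection into 44 libraries of the 8 named identities, of which 25 belonged to the 4 identities compared. These 25 held 1 to 43 cells, and 5 were single cells. No doublet caller was run, since sites with a single cell had been picked by eye, and the 85 unclassified cells entered no fit. All table columns had a sample, with 0 left over.

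The 11555 genes that reached 20 counts over all libraries, and any count in 3 or more of them, were tested by edgeR 4.0.16 in R 4.3.3 (TMM scaling, robust quasi-likelihood fit, two-sided F test) with identity and collection as terms. Identities were weighted equally, with Benjamini-Hochberg adjustment over all genes and a call at an adjusted p under 0.05. The SE is the absolute log2 fold change divided by the square root of F. Whether libraries of a collection deviate together was checked where both had 5 or more cells. Deviations of 3544 genes from identity means correlated at 0.211 to 0.284 in 4 pairs of the same collection and at -0.053 on average in 20 others. Each pair set Noradrenergic2 beside Noradrenergic3. Noradrenergic4 and Noradrenergic5 had a single library of that size each, so no Npy-poor library entered the check. The collection was therefore kept as a block. Nothing says that collections were separate animals, so p-values measure the spread between these samples. Counting intervals are 95% exact (conditional binomial) and, like the floor of 3 counts, cover counting error only. The ratios given with them, and the floor, pool all cells of a side without equal weight for identities.

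The genes named were Npy, Gal, Adra2a, Th, Dbh and Slc6a2, the 15 of widest gap in each direction among those at 0.5 counts per 10000 or more, up to 4 called genes by lowest adjusted p in each of 28 lists written from general knowledge, and the genes most like Npy. The members and the lists were chosen with earlier results of these data known. The fitting was tested on simulated data. Alternatives were RLE size factors, DESeq2 1.42.0, limma-voom (limma 3.58.1), filterByExpr, no filter, no block, the chip as block, fewer identities, libraries of at least 3 cells, cells thinned to 15000 counts, cells pooled per side, each chip lot, and leaving out each collection. A gene result is not reported here.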

Additional observations from a re-analysis of the deposited data

Results flagged for a closer look

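Single collections that stood apart from the rest of their side were looked for in 68 groups of levels, and 14 were found. The rule flags about 1 in 20 groups only where values are independent and alike in spread. These groups share collections that hold different numbers of cells, so whether 14 exceeds chance was not tested. On the Npy-poor side the P33 female collection, which holds the 2 Noradrenergic4 cells richest in Npy, was the highest for Tmem255b (0.131 counts per 10000, the rest 0 to 0.0556), Pcp4 (2.30, the rest up to 0.383), Chodl (1.11, the rest up to 0.154) and Plscr1 (0.613, the rest 0.154 to 0.322). The P34 female collection, a single Noradrenergic5 cell, was the highest for Cpne8 (0.978) and Fxyd5 (0.734) and the lowest for Gfra2 (0, the rest from 0.769). Colq was highest in the P30 female collection (1.43). On the Npy-rich side the P34 female collection of 3 cells had Dmkn at 2.74, where the rest had 0.430 or less. Adra2a (0.879) and Tmtc1 (1.54) were highest in the single cell of the P20 female collection, Edn3 in the P31 female collection (0.185) and Lrrn3 in the P11 female collection (0.706), which also had the lowest Slc6a2 (12.1, the rest from 23.8).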

How the results depend on the processing

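All 420 calls had the same sign in each setting in which they were tested, apart from 2 on one chip lot. Of 82 named and called genes 33 had a call in every setting in which they were tested, and 49 lost it in at least 1. The reversed one was Adm, at -0.1584 on that lot (edgeR adjusted p = 0.944). The losses given above for single genes are not a full list. On the same lot Fgfr1, Gfra3, Lifr, Kcnmb4, Kcnt1, Scn3b, Epha5, Slit2, Prkar2b, Nefm and Ecel1 were not called either. Counts that moved by over 1.5 times are given here, from 268 genes higher, 152 lower and 407 following the division, 41 higher and 23 lower in Noradrenergic2 with 3, and 33 for Noradrenergic4 with 5. DESeq2 gave 154 higher, 26 and 8 in Noradrenergic2 with 3, and 3 for Noradrenergic4 with 5. The same counts were 162, 24 and 10, and 7 with limma-voom, which also gave 352 lower. With filterByExpr, which tests fewer genes, they were 89 higher, 72 lower, 155 following, 14 and 5, and 3. Without the replicate block they were 259, 145, 395, 41 and 20, and 12, of which the last moved by over 1.5 times. Noradrenergic2 with 3 gave 48 lower with the chip as block, 64 higher and 36 lower with only these identities in the fit (67 for Noradrenergic4 with 5), and 70 higher and 37 lower with libraries of at least 3 cells. Thinned cells, which left out 1 Npy-poor cell, gave 67 lower between the sides, 13 and 5, and 12. Cells pooled per side gave 157 higher. One chip lot gave 136, 65, 195, 9 and 3, and 18, and the other 74, 34, 105, 16 and 12, and 7, both with fewer samples. Leaving out each collection gave 161 to 276 higher, 57 to 152 lower, 213 to 412 following, 23 to 47 higher and 17 to 26 lower in Noradrenergic2 with 3, and 16 to 38 for Noradrenergic4 with 5. The lowest of each came without the P31 female collection. Without the P38 male collection Noradrenergic2 with 3 had 27 higher, and without the P11 or the P30 female collection Noradrenergic4 with 5 came to 18 and 21. Without the P33 female Noradrenergic4 library, an alternative chosen after seeing the data, 372 of the 420 calls remained. The cause of the other shifts was not tested. Genes with few counts on a side, such as Oprk1 and Sst, are limited by counting error, and 5 of the 25 libraries are single cells.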

Other observations

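A few genes outside the lists were picked after their values were seen. Hoxc8 and Hoxc9, homeobox genes that mark position along the body axis, were both called higher on the Npy-rich side, by 2.34 (SE 0.28) and 2.97 (SE 0.55). Hoxc8 stood at 1.96 counts per 10000 in Noradrenergic2 and 0.745 in Noradrenergic3, against 0.283 in Noradrenergic4 and 0.278 in Noradrenergic5, with Noradrenergic2 above Noradrenergic3 (adjusted p = 0.00447 by edgeR). Hoxd8 was not called (0.51, SE 0.73). Hoxc10, Hoxb8, Hoxb7 and Hoxa7 were looked at too, but their values are not given here, so the Hox genes are not described as a group. Agrp, which codes for agouti-related peptide, was called lower on the Npy-rich side (-3.65, SE 0.84) but did not follow the division: it stood at 1.08 in Noradrenergic4, 0.00934 in Noradrenergic5, 0.0269 in Noradrenergic3 and 0 in Noradrenergic2, and 131 counts came from 9 Npy-poor cells.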
